A study of Mus musculus with 8 samples.

Results

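Flrt2 and 9 genes that belong with it by position or by protein family were followed through the lungs of mice without (WT) and with a DDAH1 transgene (TG), given PBS or house dust mite extract (HDM). The 10 genes were Flrt2, the pseudogene 1700019M22Rik on the same chromosome, the paralogs Flrt1 and Flrt3, the netrin receptors Unc5a, Unc5b, Unc5c and Unc5d, and the latrophilins Adgrl1 and Adgrl3. They were taken from the 23469 genes of the count table by their Entrez identifiers, and all 10 were found. Flrt2 and 1700019M22Rik were chosen by their difference in counts between TG and WT in these same libraries. Their genotype differences, and the difference between the PBS and HDM values of those differences, are therefore described with no test.

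FLRT proteins are cell surface molecules with leucine-rich repeats and a fibronectin domain that steer migrating cells and growing axons. Cells that carry UNC5 receptors are repelled by FLRT proteins, while latrophilins, adhesion receptors coupled to G proteins, bind them across cell contacts. In lung, these families are studied mainly in blood vessels and in the growing airway and vessel tree.

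All mice were of the C57BL/6 strain, and the sources used here give neither the promoter nor the species of the DDAH1 transgene, nor the age of the mice. WT and TG mice received 50 µl of PBS, alone or with 100 µg of HDM, into the trachea 3 times per week for 3 weeks. At 24 hours after the last dose the airway response to methacholine was measured. Lung tissue was then taken, along with blood and bronchoalveolar lavage samples. RNA of 4 mice per group was pooled and sequenced as 2 libraries, which gave 8 libraries in 4 groups. Every SD and p-value below measures only the spread between 2 libraries of 1 pool, which is technical, and no variation between mice. RNA of lung tissue also does not tell fewer cells of a type from less RNA per cell.

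Total counts lay between 5694928 in TG HDM replicate 1, the smallest library, and 11929374 in WT PBS replicate 2. All 8 lung epithelium markers were detected. Their summed level, in counts per 1000000 scaled counts (CPM), was 42047 to 49603 in WT PBS, 21854 to 25472 in WT HDM, 50746 to 73103 in TG PBS and 21700 to 30129 in TG HDM. Ddah1 itself, the gene named by the transgene, did not pass the test in either genotype comparison: it had 475 and 420 counts in WT PBS, 771 and 509 in TG PBS, 482 and 445 in WT HDM, and 233 and 431 in TG HDM. Scaled to library size, its TG libraries lay above the WT libraries under PBS and below them under HDM. The genotypes did not overlap for 40.3% of all genes tested under PBS and 48.2% under HDM. Xist lay between 11.3 and 20.8 CPM in the 4 PBS libraries and between 2048 and 3040 CPM in the 4 HDM libraries, and the Y-linked gene Ddx3y had at least 621 counts in each PBS library and at most 3 in each HDM library. HDM treatment and the sex of the mice therefore cannot be told apart in any comparison of HDM with PBS. Markers of other tissues also moved with the groups. The summed level of 10 skeletal muscle markers was 43.0 to 46.7 CPM in WT PBS and 173 to 308 CPM in the other groups, and 6 thymocyte markers summed to 68.3 to 68.7 CPM in WT PBS and 11.5 to 19.9 CPM elsewhere. Sums of 6 smooth muscle, 6 heart muscle and 8 fibroblast markers were lower in TG than in WT in both treatments. Smooth muscle lay at 235 to 242 CPM in WT PBS and 322 in WT HDM. In TG it lay at 162 to 174 with PBS and 177 to 193 with HDM. Heart muscle lay at 299 to 348, 205 to 214, 147 to 192 and 90.4 to 103 CPM in the same order. Fibroblast markers lay at 992 to 1044, 1200 to 1230, 969 to 978 and 948 to 1073 CPM. Adipose and neutrophil sums were highest in WT PBS. The part of these markers in the results below was not tested.

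Flrt2 (Entrez 399558) lies on the plus strand of chromosome 12, at chr12:95692006-95785215 in GRCm38. It has 2 exons, and its whole coding region of 1980 bases lies within 1 of them, at chr12:95778890-95780869.

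Flrt2 was 11.5-fold higher in TG than in WT lungs under PBS and 10.7-fold higher under HDM. In PBS-treated mice Flrt2 had 255 and 377 counts in the WT libraries and 3327 and 3029 in the TG libraries. In HDM-treated mice it had 320 and 212 counts in WT and 1883 and 3091 in TG. Scaled to library size, the level of Flrt2 was 28.2 ± 3.64 CPM (SD, n = 2) in WT PBS, 24.9 ± 5.16 in WT HDM, 326 ± 8.47 in TG PBS and 261 ± 30.2 in TG HDM. The TG libraries all lay far above the WT libraries and the 2 genotypes did not overlap. The log2 fold change of TG against WT was 3.52 (SE 0.17) under PBS and 3.42 (SE 0.24) under HDM. The genotype difference under HDM minus that under PBS came to -0.15 (SE 0.275) on the log2 scale.

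The lowest TG library of Flrt2 was 7.78 times its highest WT library. By this measure Flrt2 ranked 1 among the 15868 genes that passed the filter over all libraries, leaving aside those with no count in WT, a description only, since Flrt2 was picked on these counts. For comparison, 282 of these genes, 1.78%, had all 4 TG libraries above all 4 WT libraries, and 267, 1.68%, had them below. By log2 fold change Flrt2 ranked 18 under PBS and 34 under HDM, with 14460 genes tested in both genotype comparisons. A log2 fold change over 3 was seen in 29 genes under PBS, in 55 under HDM and in 4 under both. No stretch of 50 bases, the read length, of the Flrt2 transcript occurs exactly in the annotated transcript of another gene. Matches with mismatches were not searched.

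**Figure D1:**
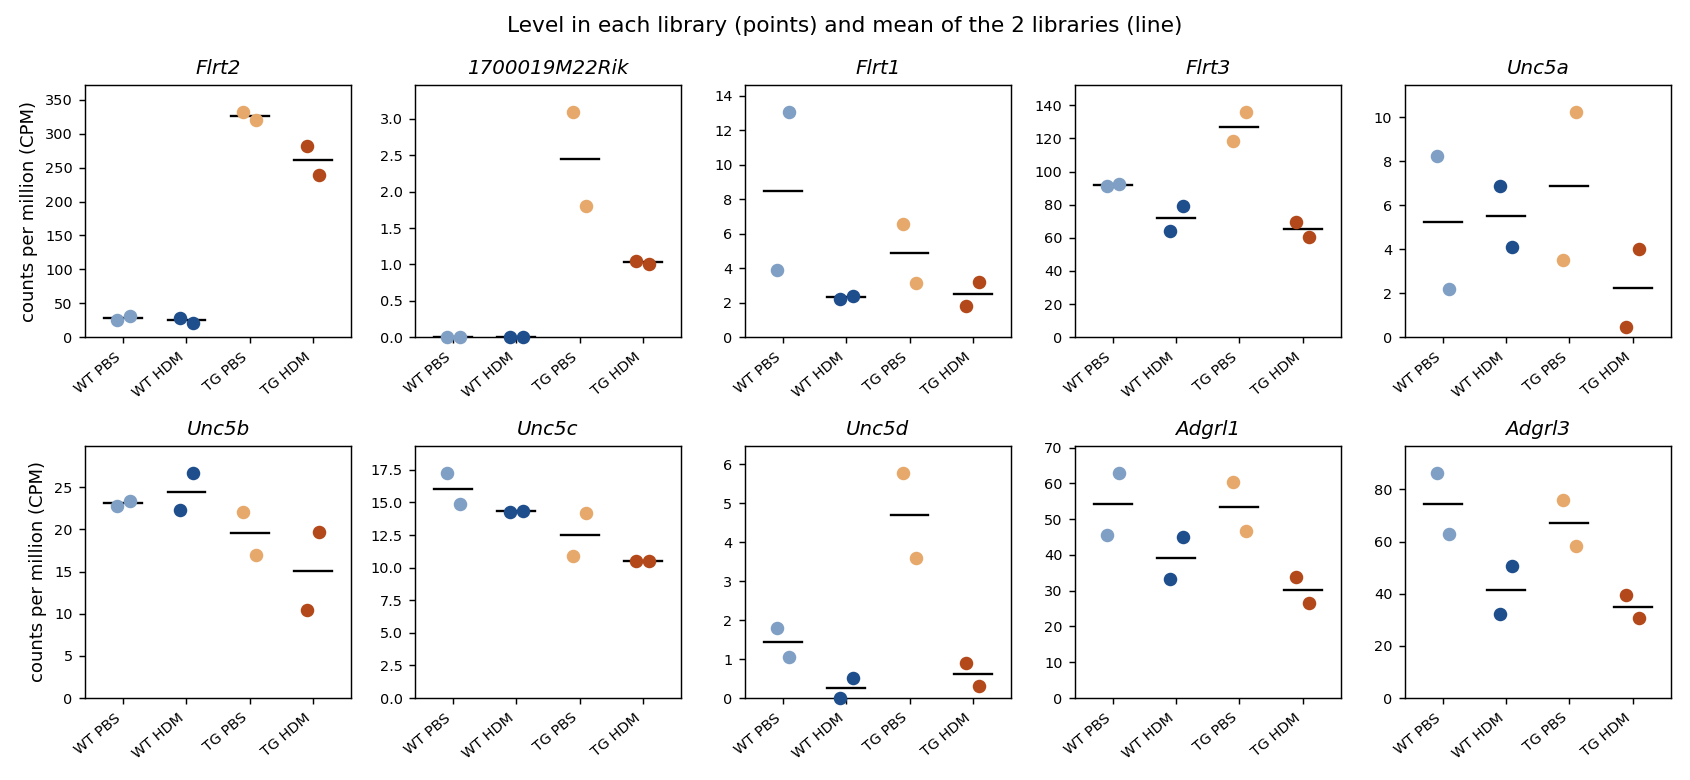
Level of each of the 10 genes in CPM (vertical axes, each from 0) in the 2 libraries of each group, with a line at their mean. Flrt2 lies between 239 and 332 CPM in the 4 TG libraries and between 21.3 and 30.8 in the 4 WT libraries, while 1700019M22Rik has counts in TG libraries alone. Unc5b and Unc5c have every TG library below every WT library by a small margin, as do 1.68% of all genes that passed the filter. The other 6 genes overlap between the genotypes.

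1700019M22Rik (Entrez 69423), annotated as a non-coding pseudogene, lies 261 kb beyond the end of Flrt2 on the opposite strand, at chr12:96046621-96047222. Among the 15868 genes that passed the filter over all libraries, 1700019M22Rik alone had counts in all TG libraries and none in WT. A gene at 0 in WT can pass that filter only through its TG libraries. The transcript of 1700019M22Rik, at chr12:96046767-96047120 in GENCODE, is shown because of this pattern. The first 300 of its 354 bases, at chr12:96046821-96047120 on the minus strand, are given with the first 3 bases, the letters of a start codon, in capitals.
1700019M22Rik: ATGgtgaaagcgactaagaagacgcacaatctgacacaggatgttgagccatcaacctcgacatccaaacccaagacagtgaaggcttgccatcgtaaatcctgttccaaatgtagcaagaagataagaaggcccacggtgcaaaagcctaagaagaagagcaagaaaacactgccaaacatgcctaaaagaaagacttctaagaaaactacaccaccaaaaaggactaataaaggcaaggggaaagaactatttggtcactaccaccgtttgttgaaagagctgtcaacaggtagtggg
None of its stretches of 50 bases occurs exactly in another annotated transcript. 1700019M22Rik had 0 counts in each of the 4 WT libraries, where a count of 0 allows up to 3 counts. It had 31 and 17 counts in TG PBS and 7 and 13 in TG HDM, or 2.44 ± 0.917 and 1.03 ± 0.0295 CPM (SD, n = 2). Against the floor of 3 counts per library, its level in TG was at least 8.95-fold higher under PBS and at least 3.61-fold higher under HDM. Counts this low leave wide errors, and the floor covers counting error only. For every 1000 counts of Flrt2, the pseudogene had 9.32 and 5.61 counts in the TG PBS libraries and 3.72 and 4.21 in the TG HDM libraries.

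None of the other genes around Flrt2 passed the genotype test. The count table holds 28 more genes whose start lies within 5 Mb of the start of Flrt2, and none of them lies within 2 Mb. In edgeR's quasi-likelihood test, with p adjusted after Benjamini and Hochberg, 0 of the 21 tested under PBS and 0 of the 23 tested under HDM passed an adjusted p of 0.05, against 0.657% and 2.44% of all genes tested. At an unadjusted p under 0.05 there were 1 and 6, against 9.98% and 16.2% of all genes, and DESeq2 called 0 under PBS and 1 under HDM. Their median log2 fold change was 0.01 under PBS and 0.20 under HDM, and that of all genes was 0.00 and 0.01.

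The nearest genes on each side give the scale. Before Flrt2, Sel1l, which takes part in clearing misfolded proteins from the endoplasmic reticulum, lies 3.84 Mb away and differed by 0.15 (SE 0.14) under PBS and -0.22 (SE 0.19) under HDM on the log2 scale. Ston2, an endocytic adaptor 3.91 Mb away, differed by -0.37 (SE 0.19) and -0.72 (SE 0.29), and Gtf2a1, a subunit of the general transcription factor TFIIA, by 0.34 (SE 0.21) and 0.87 (SE 0.395). Gtf2a1 reached 176 CPM in TG HDM replicate 1 and 59.1 CPM in the other TG HDM library. Tshr, the thyrotropin receptor, had at most 46 counts in a library and was not tested under PBS. Beyond Flrt2 the nearest gene was Galc, a lysosomal enzyme that degrades galactolipids, 2.42 Mb away, with -0.35 (SE 0.52) and 0.87 (SE 0.43). Gpr65, an acid-sensing receptor of leukocytes, differed by 1.09 (SE 0.82) and -0.29 (SE 0.40). The values of Ptpn21 were -0.37 (SE 0.28) and -0.61 (SE 0.42), and those of Spata7, at most 80 counts in a library, were -0.61 (SE 0.75) and 0.17 (SE 0.87).

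**Figure D2:**
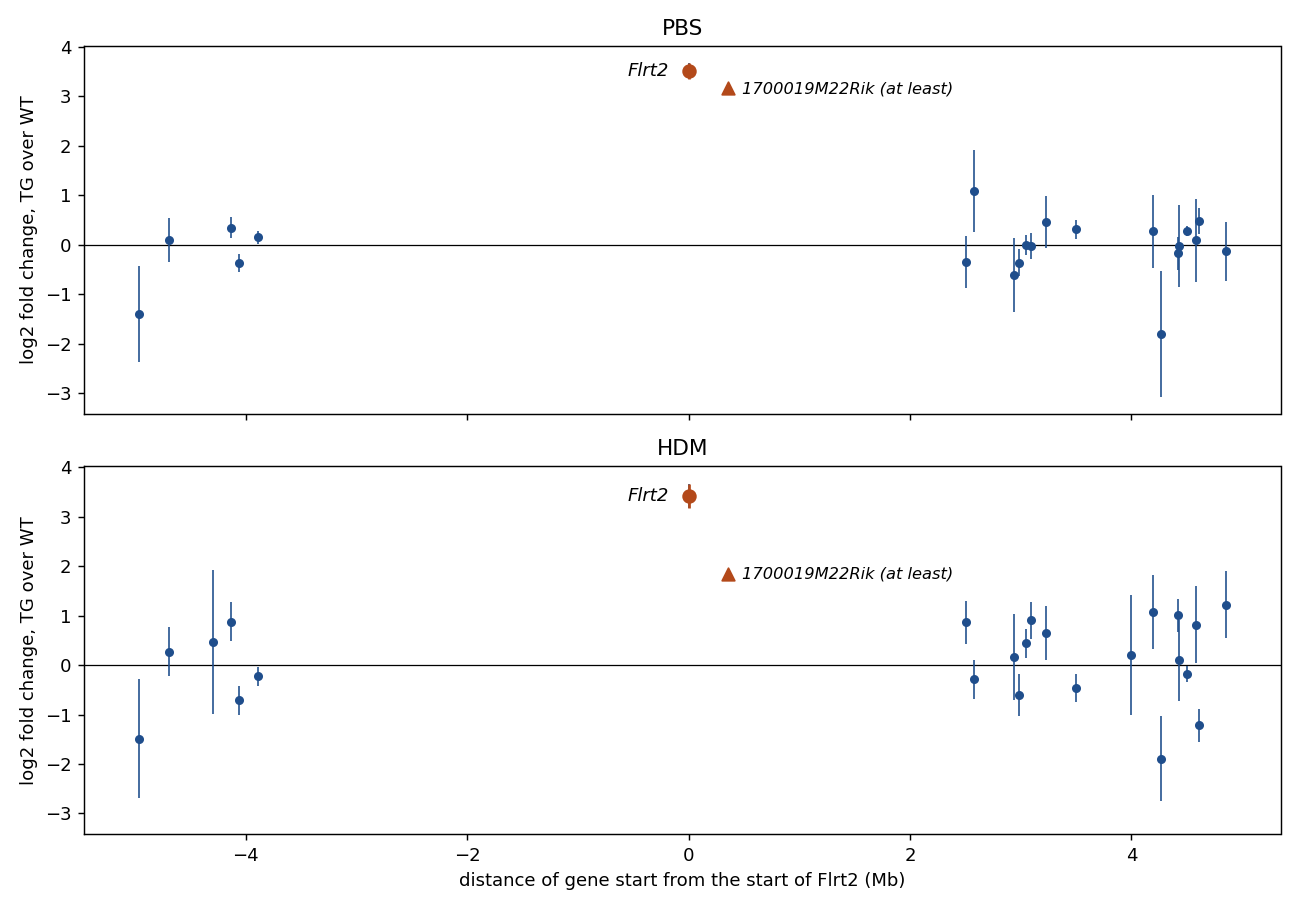
Log2 fold change of TG against WT (vertical axis, bars give the SE) for each tested gene against the distance of its start from that of Flrt2 in Mb, under PBS (top) and HDM (bottom). Flrt2, at 3.52 and 3.42, and the lower bounds of 1700019M22Rik (triangles) stand above the genes on either side, which lie between -1.81 and 1.09 under PBS and between -1.89 and 1.22 under HDM.

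Some of these neighbours changed with HDM, in both directions. Gpr65 rose in WT, from 20 and 22 counts to 272 and 178 (log2 fold change 3.46, SE 0.49, adjusted p 0.000535 by edgeR's quasi-likelihood test), and in TG, from 27 and 52 to 102 and 236 (2.05, SE 0.56, adjusted p 0.031). It was the 1 neighbour of 22 past the threshold in WT, where 6.74% of all genes tested passed and 4.44% were higher. In TG 5 of 22 passed, against 13.8% of all genes, with 8.43% higher and 5.35% lower. These shares rest on 2079 calls, which became 404 of 15766 genes without TG PBS replicate 1 and 277 of 15756 without TG PBS replicate 2. Besides Gpr65, Galc (log2 fold change 2.06, SE 0.50) and the proteasome subunit Psmc1 (1.08, SE 0.32) were higher with HDM in TG, and Ston2 (-0.95, SE 0.27) and Ttc7b (-1.26, SE 0.34) were lower. The calls of these 5 genes all rested on both TG PBS libraries. Those of Gpr65, Galc, Psmc1 and Ston2 also rested on TG HDM replicate 2, and that of Ttc7b on TG HDM replicate 1. With an offset for gene length Gpr65, Psmc1 and Ston2 did not pass. Ttc7b, part of a complex that brings a lipid kinase to the plasma membrane, was also the 1 neighbour of 24 whose genotype difference changed with treatment. Its counts were 324 and 393 in WT PBS, 526 and 424 in WT HDM, 511 and 379 in TG PBS, and 100 and 289 in TG HDM, an interaction of -1.75 (SE 0.43) with an adjusted p of 0.041 by edgeR, where 1.76% of all genes passed, 0.706% with a negative value. With an offset for gene length that adjusted p no longer passed and was at most 0.0531, and with 1 of the 8 libraries left out it passed in 1 of 8 fits.

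The paralogs of Flrt2 did not follow it. Flrt1 lies on chromosome 19 and Flrt3 on chromosome 2, and each, like Flrt2, has its coding region within 1 exon. Aligned over the coding region, Flrt2 was identical to Flrt1 at 55.5% of 1883 bases and to Flrt3 at 54.4% of 1901 bases, with no run of identical bases longer than 18, against reads of 50 bases. The stretch in which they are most alike is printed to show how they differ. It covers 60 bases, of which 43 are the same in all 3, and capitals mark the positions that differ.
Flrt2 (coding bases 995 to 1054): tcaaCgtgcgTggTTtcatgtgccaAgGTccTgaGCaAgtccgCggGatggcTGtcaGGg
Flrt1 (coding bases 1049 to 1108): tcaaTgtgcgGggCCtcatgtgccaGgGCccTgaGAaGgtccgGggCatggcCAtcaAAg
Flrt3 (coding bases 980 to 1039): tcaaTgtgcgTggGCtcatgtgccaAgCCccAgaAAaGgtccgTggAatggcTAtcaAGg

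Flrt3, an FLRT protein that also acts in cell adhesion of the early embryo, was the most abundant of the 3 in WT. It had 911 and 1131 counts in WT PBS, 721 and 790 in WT HDM, 1186 and 1287 in TG PBS, and 466 and 785 in TG HDM. The TG libraries lay above the WT libraries under PBS and overlapped them under HDM. The genotype difference of Flrt3 was 0.46 (SE 0.17, adjusted p 0.33) under PBS and -0.10 (SE 0.25, adjusted p 0.89) under HDM by edgeR's quasi-likelihood test. Flrt1 had 39 and 160 counts in WT PBS, 25 and 24 in WT HDM, 66 and 30 in TG PBS, and 12 and 41 in TG HDM. The 2 WT PBS libraries of Flrt1 lay at 3.92 and 13.1 CPM and all other libraries at 6.59 CPM or less. Its genotype differences were -0.81 (SE 0.65) and 0.14 (SE 1.02).

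Per length of transcript, the FLRT family changed its leading member with the genotype. Counts per kilobase of transcript, scaled like CPM (RPKM), are used here because genes can be compared with each other only per length. Flrt3 made up 78.0% to 85.4% of the summed RPKM of the 3 genes in the 4 WT libraries and 30.5% to 42.8% in the 4 TG libraries. The share of Flrt2 was 12.8% to 19.5% in WT and 56.5% to 69.0% in TG. The sum itself was 27.3 and 29.8 RPKM in WT PBS, 20.6 and 23.4 in WT HDM, 77.7 and 79.8 in TG PBS, and 57.6 and 49.5 in TG HDM. The authors state that reads were counted in coding regions, so the coding length is the other possible divisor. Genes with no coding region, such as 1700019M22Rik, also have counts, so the regions counted are not certain. With it the share of Flrt2 was 20.4% to 29.7% in WT and 69.4% to 79.5% in TG.

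**Figure D3:**
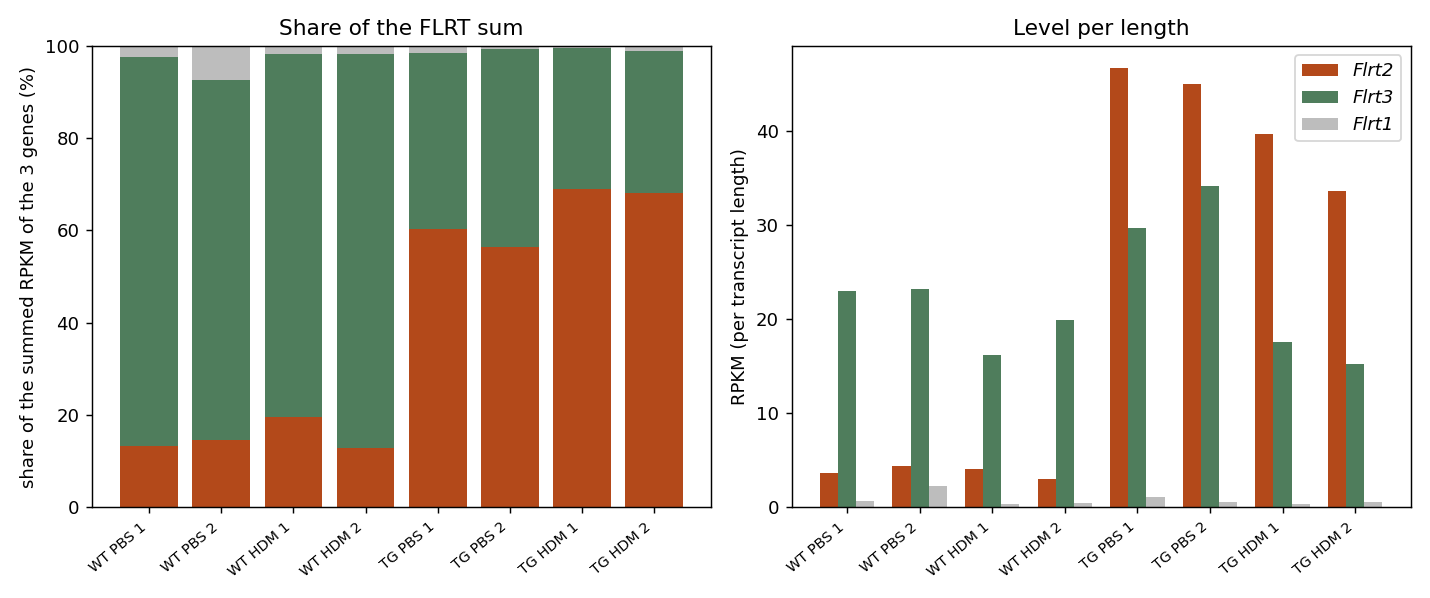
Share of Flrt1, Flrt2 and Flrt3 in their summed RPKM (left, stacked bars, percent) and the RPKM of each gene (right, per length of transcript) in each of the 8 libraries. Flrt3 takes the larger part of every WT library and Flrt2, at 56.5% or more, of every TG library.

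The receptors of FLRT proteins did not pass the genotype test either. Of the 8 family members other than Flrt2 and 1700019M22Rik, 0 of 8 tested under PBS and 0 of 7 tested under HDM passed an adjusted p of 0.05 in edgeR's quasi-likelihood test. DESeq2 called 0 and 0, and 1 (Flrt3) and 0 had an unadjusted p under 0.05. The adjusted threshold was passed by 0.657% and 2.44% of all genes. Under PBS the libraries of the 2 genotypes did not overlap for 4 of the 8, with Flrt3 and Unc5d higher and Unc5b and Unc5c lower in TG, where 40.3% of all genes tested did not overlap (20% higher and 20.4% lower). Under HDM they did not overlap for 3 of the 7, Unc5a, Unc5b and Unc5c, all lower in TG, where the share of all genes was 48.2%, and 25% were lower. The median log2 fold change of these members was -0.10 under PBS and -0.34 under HDM.

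Among the UNC5 receptors, Unc5b, which is known for guiding the sprouting of blood vessels, had the highest level per length of transcript in each library, at 39.6% to 64.3% of the UNC5 sum. By coding length this held in all libraries but TG HDM replicate 1, where Unc5c made up 47.3% and Unc5b 46.6%. Unc5b had 227 and 286 counts in WT PBS, 249 and 266 in WT HDM, 221 and 161 in TG PBS, and 70 and 255 in TG HDM. Its TG libraries lay below the WT libraries in both treatments once scaled to library size, by -0.25 (SE 0.33) under PBS and -0.65 (SE 0.42) under HDM. Unc5c, a netrin receptor of migrating neurons, had 172 and 182 counts in WT PBS, 160 and 143 in WT HDM, 109 and 134 in TG PBS, and 70 and 136 in TG HDM. It too was lower in every TG library, at 10.5 to 14.2 CPM against 14.3 to 17.3 CPM in WT. Its differences of -0.37 (SE 0.40) and -0.41 (SE 0.46) did not pass the test. Of the 15868 genes that passed the filter over all libraries, 267, 1.68%, had all 4 TG libraries below all 4 WT libraries. Unc5a varied widely between libraries of 1 pool, with 82 and 27 counts in WT PBS, 77 and 41 in WT HDM, 35 and 97 in TG PBS, and 3 and 52 in TG HDM.

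Unc5d, the UNC5 receptor best known for binding Flrt2 in the developing cortex, was the least expressed of the 4 in each group. It had 18 and 13 counts in WT PBS, 0 and 5 in WT HDM, 58 and 34 in TG PBS, and 6 and 4 in TG HDM. The highest values were those of the TG PBS libraries, 5.79 and 3.59 CPM, but the difference from WT PBS, 1.70 (SE 0.83) on the log2 scale, had an adjusted p of 0.52 in edgeR's quasi-likelihood test. Under HDM its counts were too low for the genotype test. The UNC5 sum came to 7.94 and 6.18 RPKM in WT PBS, 6.99 and 7.13 in WT HDM, 6.39 and 7.32 in TG PBS, and 3.08 and 5.50 in TG HDM.

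**Figure D4:**
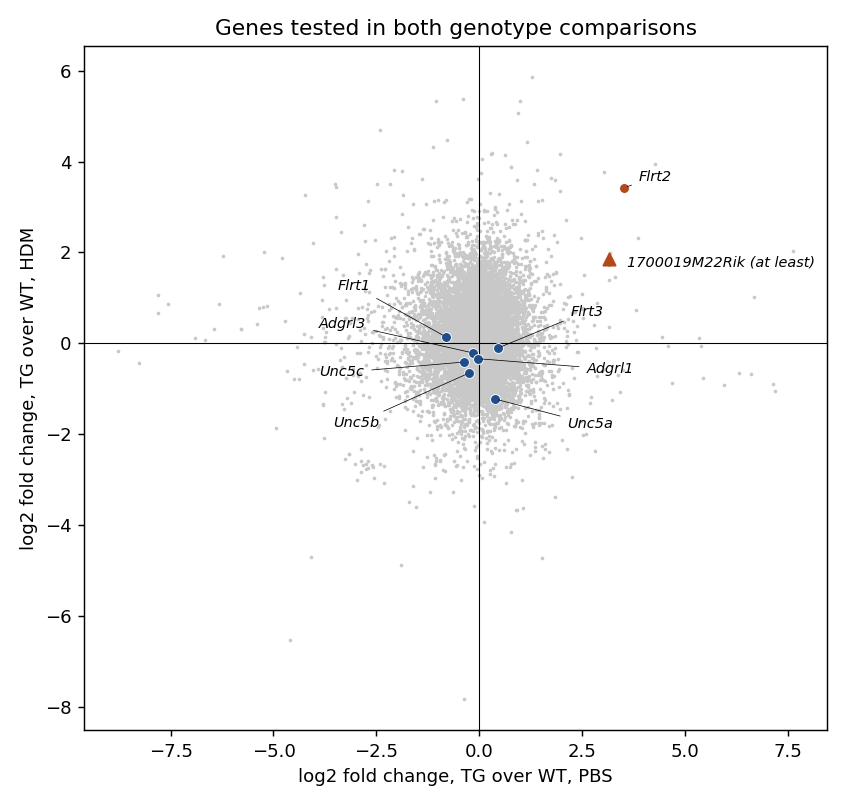
Log2 fold change of TG against WT under PBS (horizontal axis) and under HDM (vertical axis) for the genes tested in both comparisons (grey), which share no library. Flrt2 lies at 3.52 and 3.42 and 1700019M22Rik is drawn at its lower bounds, while the 7 family members tested in both (blue) lie between -0.81 and 0.46 under PBS and between -1.22 and 0.14 under HDM.

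Adgrl1 and Adgrl3 had the highest mean RPKM of the receptors among the members in every group. Adgrl1 had 455 and 772 counts in WT PBS, 372 and 448 in WT HDM, 606 and 441 in TG PBS, and 226 and 343 in TG HDM. Adgrl3, a latrophilin that binds FLRT proteins and teneurins at synapses, had 860 and 769 counts in WT PBS, 360 and 506 in WT HDM, 760 and 552 in TG PBS, and 263 and 396 in TG HDM. Both were lower in HDM libraries than in PBS libraries of the same genotype, without overlap, and neither differed between the genotypes beyond the spread of the libraries. The genotype differences were -0.03 (SE 0.24) and -0.34 (SE 0.33) for Adgrl1 and -0.16 (SE 0.22) and -0.21 (SE 0.33) for Adgrl3. Of the stretches of 50 bases, 10.7% in Adgrl1 and 17.5% in Adgrl3 also lie in annotated transcripts of other genes, mostly antisense ones (Gm10644 and Gm16054), and the sources used here do not say whether counting used the strand.

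Ordered per length of transcript, Flrt2 stood behind Flrt3, Adgrl3 and Adgrl1 in WT and before all other members in TG. In WT PBS the order by mean RPKM was Flrt3 (23.1), Adgrl3 (12.0), Adgrl1 (6.65), Flrt2 (3.97), Unc5b (3.93), Unc5c (1.67), Flrt1 (1.45), Unc5a (1.31), Unc5d (0.156) and 1700019M22Rik (0). Flrt2 and Unc5b overlapped there, as did Unc5c, Flrt1 and Unc5a. In WT HDM it was Flrt3 (18.1), then Adgrl3, Adgrl1, Unc5b and Flrt2 with each neighbour in the order overlapping, from 6.69 down to 3.51, and then the remaining genes at 1.49 or less. In TG PBS Flrt2 came first at 45.9 ± 1.19 RPKM (SD, n = 2), above Flrt3 at 32.0 ± 3.13, with no overlap. In TG HDM Flrt2 was again first at 36.7 ± 4.25 RPKM, above Flrt3 at 16.4 ± 1.60 and Adgrl3 at 5.65 ± 0.994. In TG PBS 1700019M22Rik, at 6.91 RPKM over its short transcript, overlapped Adgrl1 at 6.54. The WT order turned with coding length in place of transcript length. Flrt2 then had a mean of 14.2 RPKM in WT PBS, between Adgrl3 (16.1) and Adgrl1 (12.4), and 12.6 in WT HDM, second to Flrt3 and above Adgrl3 (8.96) and Adgrl1 (8.89). The libraries of Flrt2 overlapped those of its neighbours Adgrl3 and Adgrl1 in WT PBS and those of Adgrl3 in WT HDM. In TG Flrt2 was first by either length.

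Flrt3 fell with HDM in TG mice, and Flrt2 did not pass the test in either genotype. Flrt2 differed by -0.18 (SE 0.31, adjusted p 0.82) between HDM and PBS in WT, where the libraries overlapped, and by -0.30 (SE 0.19, adjusted p 0.34) in TG, where both HDM libraries lay below both PBS libraries, by edgeR's quasi-likelihood test. In TG, Flrt3 fell from 118 and 136 CPM to 69.8 and 60.8 CPM, a log2 fold change of -0.94 (SE 0.23, adjusted p 0.020), and it was the 1 member of 10 that passed. The share of all genes lower with HDM in TG at this threshold was 5.35%. Leaving out TG PBS replicate 1 or 2 gave Flrt3 an adjusted p of 0.13 or 0.25, and it passed in each of the 8 other alternatives. In WT the same gene went from 91.5 and 92.3 CPM to 64.4 and 79.3 (-0.36, SE 0.19, adjusted p 0.33), and the test of the difference between the genotypes gave -0.61 (SE 0.29) with an adjusted p of 0.35.

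None of the other members passed in either genotype. In TG all 10 members had a negative fitted value, with a median of -0.93 against 0.03 for all genes tested, but with an offset for gene length the values of Flrt2 (0.01) and Unc5c (0.18) turned positive. Markers of some lung cells fell in the same comparison, where 5.35% of all genes tested were lower and 8.43% higher. Of the lung epithelium markers 3 of 8 fell (median over the list -0.67 on the log2 scale), and of the endothelium markers 5 of 8 (median -1.09). Of the fibroblast markers 2 of 8 fell and 1 rose (median -0.21), and of the mesothelium markers 2 of 4 fell (median -0.26). Of the smooth muscle markers 0 of 6 fell (median 0.13). None of these markers was at 0, and their part in the values of the members was not tested. The HDM libraries lay below the PBS libraries without overlap for 7 of the 10 in TG and for 6 of the 9 tested in WT, where 28.0% and 24.7% of all genes did so. Adgrl3 differed by -0.85 (SE 0.26, adjusted p 0.074) in WT and -0.91 (SE 0.29, adjusted p 0.059) in TG. Its call moved with the tool, since DESeq2 gave an adjusted p of 0.034 and 0.022. In WT 0 of 9 members passed in edgeR's quasi-likelihood test, against 6.74% of all genes tested. An unadjusted p under 0.05 was seen for 2 (Flrt1 and Adgrl3, against 19.9% of all genes), and DESeq2 called 1. Flrt1 differed by -1.87 (SE 0.72, adjusted p 0.16) in WT, and by -0.76 without WT PBS replicate 2, the library with 160 counts. Unc5a differed by -1.56 (SE 0.98, adjusted p 0.34) in TG, and by -3.87 with an adjusted p of 0.0403 without TG HDM replicate 2. Unc5d differed by -2.97 (SE 1.11, adjusted p 0.10) in TG. The pseudogene 1700019M22Rik went from 31 and 17 counts to 7 and 13 in TG, a log2 fold change of -1.22 (SE 1.14, adjusted p 0.54).

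Other binding partners of these families were examined as a list of 21 genes, among them teneurins, neurexins, netrins and guidance receptors. None of the 17 tested under PBS or the 18 tested under HDM passed the genotype test by edgeR, against 0.657% and 2.44% of all genes. At an unadjusted p under 0.05 there were 0 and 2, against 9.98% and 16.2% of all genes, and DESeq2 called 0 and 1. The latrophilin Adgrl2 was the 1 of 18 that fell with HDM in WT, from 129 CPM in both PBS libraries to 87.6 and 66.5 CPM, where 2.3% of all genes fell (log2 fold change -0.74, SE 0.18, adjusted p 0.027 by edgeR's quasi-likelihood test). In TG it went from 104 and 108 CPM to 57.7 and 69.8 CPM (-0.71, SE 0.24, adjusted p 0.067). With the 3 latrophilins summed, the level per length was 47.1 and 45.4 RPKM in WT PBS and 28.0 and 27.9 in WT HDM, and 41.9 and 38.1 in TG PBS against 22.8 and 23.1 in TG HDM. Leaving out either WT PBS library or WT HDM replicate 2 took Adgrl2 past an adjusted p of 0.05, to 0.10 at most. The most abundant partner per length, the heparan sulfate proteoglycan Gpc3, lay between 26.8 and 44.8 RPKM in all libraries and passed no test.

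In TG lungs 4 of 17 partner genes fell with HDM and none rose, against 5.35% of all genes lower. Ntn4, a netrin of basement membranes, went from 62.1 and 82.8 CPM to 18.1 and 20.8 CPM (log2 fold change -1.87, SE 0.30, adjusted p 0.0020 by edgeR's quasi-likelihood test). Robo4, a receptor of endothelial cells, went from 76.3 and 50.3 CPM to 19.5 and 23.3 CPM (-1.54, SE 0.32, adjusted p 0.0082). Neo1, a receptor for netrins and repulsive guidance molecules, differed by -1.03 (SE 0.25, adjusted p 0.017) and Robo1, a Slit receptor named after its value was seen, by -1.66 (SE 0.41, adjusted p 0.020). With an offset for gene length 2 of these, Ntn4 and Robo4, passed. The calls of Robo4, Neo1 and Robo1 rested on both TG PBS libraries, and that of Ntn4 on TG PBS replicate 2. In WT the same 4 genes differed by -0.55, -0.62, -0.35 and -0.11, none past the threshold, and none had a difference between the genotypes that passed. The endothelial markers moved in the same comparison. Their summed level was 2431 to 2471 CPM in TG PBS and 1010 to 1340 CPM in TG HDM, 5 of 8 fell and none was at 0, and their part in the fall of these genes was not tested.

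Among 25 other leucine-rich repeat proteins of guidance and synaptic adhesion, 11 or fewer had enough counts for a test. Slit3, a secreted ligand of Robo receptors and the most abundant of them per length, fell with HDM in TG from 905 and 1133 counts to 251 and 387 (log2 fold change -1.61, SE 0.28, adjusted p 0.0027 by edgeR's quasi-likelihood test). It was the 1 of 11 tested that passed there, where 13.8% of all genes passed and 5.35% were lower, and without TG PBS replicate 2 its adjusted p was 0.105. In WT Slit3 went from 900 and 861 counts to 783 and 309 (-0.67, SE 0.31, adjusted p 0.24). None of the list passed in the genotype comparisons by edgeR, against 0.657% and 2.44% of all genes. At an unadjusted p under 0.05 there were 0 of 11 under PBS and 1 of 10 under HDM, against 9.98% and 16.2% of all genes, and DESeq2 called none.

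**Figure D5:**
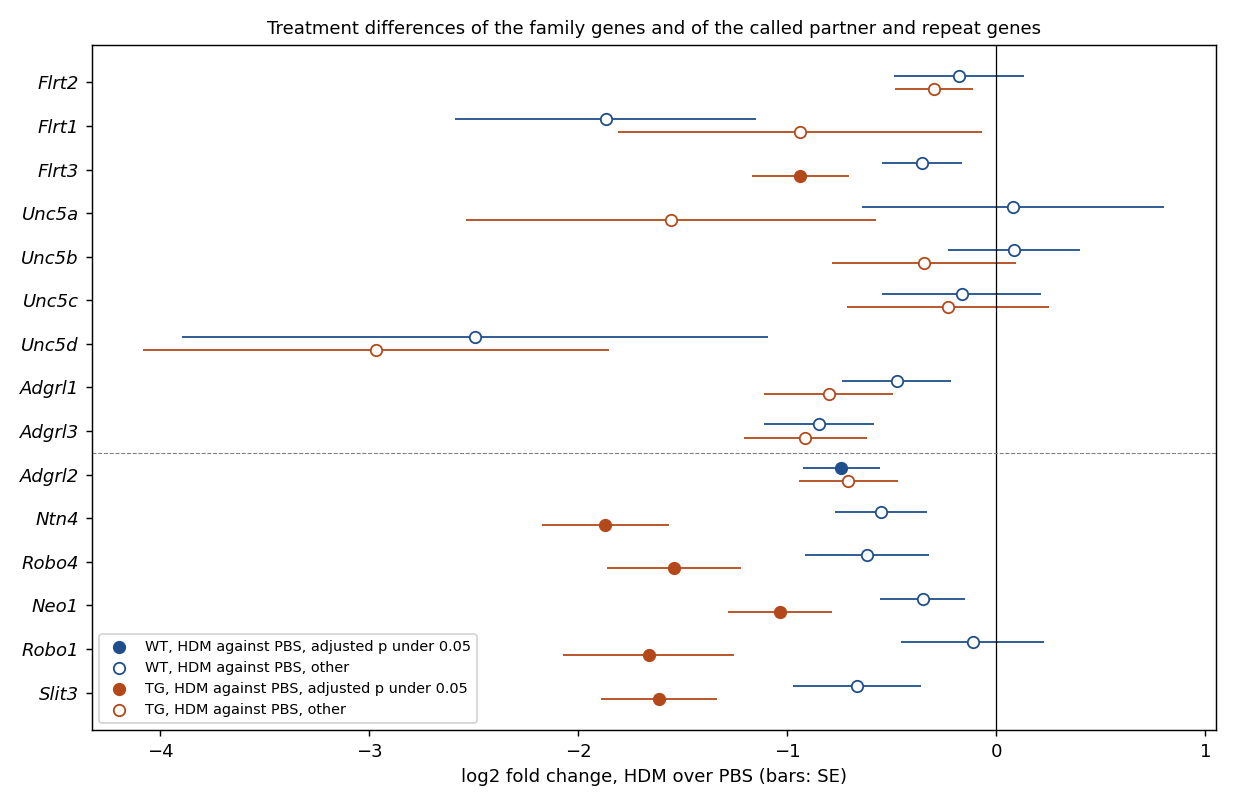
Log2 fold change of HDM against PBS (horizontal axis, bars give the SE) in WT (blue) and TG (orange) for the family genes (above the dashed line) and for the partner and leucine-rich repeat genes that passed in either genotype (below it). Filled points passed an adjusted p of 0.05. Flrt3, Ntn4, Robo4, Neo1, Robo1 and Slit3 are filled in TG and Adgrl2 in WT.

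The genes whose levels ran most like that of Flrt2 over the 8 libraries were found by Pearson's correlation of log2 CPM with Flrt2 among 15867 genes, as a description of libraries that share pools and genotype. They were 1700019M22Rik (r = 0.978), Ppp4r2 (0.968), Ddc (0.962), Tsc22d3 (0.951) and Zcchc10 (0.951). Flrt2 and 1700019M22Rik were both chosen by their genotype difference in these libraries, so the correlation between them follows from that choice. Ppp4r2, a subunit of protein phosphatase 4, lay between 61.7 and 65.7 CPM in WT and between 74.5 and 79.2 CPM in TG. Ddc, the decarboxylase that makes dopamine and serotonin, lay at 0.201 CPM or less in WT and between 1.47 and 2.43 CPM in TG. Tsc22d3, a gene induced by glucocorticoids, lay between 26.5 and 49.1 CPM in WT and between 90.4 and 120 CPM in TG. Ranking by Spearman's correlation kept none of the 5, and leaving out TG HDM replicate 1 kept 2 of them, 1700019M22Rik and Ppp4r2. Over the same libraries the correlation with Flrt2 was 0.275 for Flrt3, -0.113 for Flrt1, 0.478 for Unc5d, -0.782 for Unc5c, -0.648 for Unc5b, -0.168 for Adgrl1 and -0.131 for Adgrl3.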

How the data were processed

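Lung RNA of 8 libraries in 4 groups was measured, 2 libraries per pool of 4 mice, assigned to groups by their labels. The authors amplified the RNA, sequenced 50 cycles, aligned the reads to mm10 with TopHat and, by their account, counted them in coding regions. The counts they deposited are raw counts per gene. The versions of the aligner and annotation are not given in the sources used here. Names and positions came from RefSeq GRCm38.p6, the same build, for 23372 of 23469 genes. Lengths and transcripts came from GENCODE M21.

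The 4 libraries of each comparison were fitted alone by edgeR's quasi-likelihood test (edgeR 4.0.16, R 4.3.3), TMM scaling and filterByExpr with a count minimum of 10. The interaction used all 8 libraries. P-values were adjusted by Benjamini-Hochberg over all genes tested, with a threshold of 0.05. The SE is the log2 fold change divided by the root of F. CPM and RPKM use TMM library sizes of all 8 libraries. The scripts were tested on simulated counts, with changes put only into genes with a mean above 2 CPM. In the simulated PBS comparison of 14556 genes, 27.5% of genes raised by 1 on the log2 scale and 100% of those raised by 3.5 were called. In the simulated comparison of HDM with PBS in TG, 5.0% of 40 genes lowered by 1 and 52.5% of 40 lowered by 2 were called. Alternatives were RLE scaling, DESeq2 1.42.0, keeping genes of low counts, a block for replicate number, leaving ribosomal RNA and haemoglobin out of library sizes, an offset for gene length (loess, span 0.5) with and without the block, all 8 libraries in one fit, each library left out in turn, a neighbour distance of 2 Mb, coding length, and other measures of likeness. Named were all members, Ddah1 and sex genes, called genes of the lists (at most 3 per list, direction and comparison by p) and the most abundant one per length, called neighbours, the 4 nearest expressed neighbours on each side, and the 5 genes most like Flrt2. Further genes were named only where a count of 5 or fewer referred to them. The members and lists were chosen with earlier results of these data known. The libraries of each pool differed by more than sampling noise, with a chi-square per gene of 14.3 to 31.8, and were kept apart.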

Additional observations from a re-analysis of the deposited data

How the results depend on the processing

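The genotype difference of Flrt2 stayed between 3.51 and 3.53 (log2) under PBS and between 3.38 and 3.64 under HDM over the alternatives with all libraries, and between 3.40 and 3.65 and between 3.24 and 3.63 with a library left out. No other family member passed a genotype test under any alternative. The replicate numbers do not pair the libraries (correlation of deviations -0.0214 to 0.0317). With them as a block, 45 genes passed the genotype test under PBS in place of 98, and 625 under HDM in place of 370. Calls over all genes for HDM genotype ran from 6 without WT HDM replicate 1 and 20 without WT HDM replicate 2 to 1595 without TG HDM replicate 2, and DESeq2 called 223 and 922. An offset for gene length gave 181 under HDM and took the higher share from 75.4% to 51.4%. For HDM against PBS in TG it gave 1387 genes in place of 2079, and calls ran from 277 without TG PBS replicate 2 and 404 without TG PBS replicate 1 to 2834 with no filter.

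With the offset for gene length, without and with the replicate block, Flrt2 became 0.013 and 0.0078 and Unc5c 0.18 and 0.19 for HDM against PBS in TG, and the interactions became 0.11 and 0.12 (Flrt2), 0.23 and 0.24 (Unc5c) and 0.13 and 0.10 (Adgrl3). The cause was not tested.

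Members past the threshold in WT (HDM against PBS) numbered 1 with DESeq2, with no filter and with the offset and block, and in TG 2 with DESeq2, no filter, the block or all 8 libraries in one fit. Partner genes numbered 1 under HDM genotype with DESeq2, no filter or the joint fit, 0 in WT treatment with the joint fit, 2 in TG treatment with the offset and 6 with DESeq2, no filter, the block or the joint fit (4 in the fit reported), and 1 for the interaction with DESeq2 or no filter. Leucine-rich repeat genes numbered 1 in WT treatment with no filter or the offset and block, and 2 in TG treatment with RLE, DESeq2, no filter, the block or the joint fit. Neighbours numbered 1 under HDM genotype with DESeq2 or the joint fit and 2 with no filter, 8 in TG treatment with no filter and 2 with the offset, and 0 for the interaction with the offset, alone or with the block. A distance of 2 Mb leaves no neighbour.

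With a library left out, PBS genotype values ranged from -1.42 to 0.30 for Flrt1, -0.57 to 1.63 for Unc5a, -0.24 to 0.21 for Adgrl1 and -0.38 to 0.10 for Adgrl3, and HDM genotype values from -0.32 to 0.47 for Flrt1, -0.26 to 0.065 for Flrt3 and -0.52 to 0.17 for Adgrl3. Treatment values in WT ranged from -0.41 to 0.0044 for Flrt2, -0.59 to 1.31 for Unc5a and -0.068 to 0.21 for Unc5b, and in TG from -0.88 to 0.016 for Unc5b. Interactions ranged from -0.33 to 0.080 for Flrt2, -0.20 to 1.54 for Flrt1, -0.26 to 0.12 for Unc5c, -1.51 to 3.91 for Unc5d and -0.39 to 0.28 for Adgrl3. Calls ranged as follows. Under PBS genotype 0 to 1 repeat genes and 0 to 1 neighbours passed (1 without TG PBS replicate 1), and under HDM genotype 0 to 1 partners, 0 to 2 repeat genes and 0 to 4 neighbours (the most without TG HDM replicate 2). In WT treatment 0 to 1 members, 0 to 1 partners, 0 to 1 repeat genes and 1 to 2 neighbours passed. In TG treatment 0 to 2 members, 0 to 5 partners, 0 to 1 repeat genes and 0 to 5 neighbours passed, the fewest without a TG PBS library. For the interaction it was 0 to 1 partners and 0 to 2 neighbours.

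Unc5d, Unc5a, Flrt1 and 1700019M22Rik had fewer than 100 counts in most libraries. In the simulated comparisons of 2 libraries with 2, 5.0% to 27.5% of genes changed by 1 on the log2 scale were called. The changed genes were drawn only from those with a mean above 2 CPM, and recovery below that level was not simulated.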
